A study of Homo sapiens with 4 samples.

Results

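Ribosome-protected footprints were followed on 5 genes that build ribosomes: ZNF622, NOL6 and RCL1, which help assemble the cytosolic ribosome, and MRPL36 and MRPL54, which are proteins of the mitochondrial ribosome. They are 5 of the 78724 rows in the deposited count table, of which 9443 held a count above 0 in any library and 2526 were tested. The 5 were chosen by their identity and by their footprint counts in this same comparison, so their differences between the media are given as a description and carry no test. The cells were A375, an established human melanoma line, grown in serum-containing DMEM and then kept for 48 h either in control medium, whose recipe is not given in the sources used here, or in a medium rebuilt from an amino-acid-free RPMI 1640 base with glucose, sodium pyruvate and every amino acid but arginine. The media may thus differ in more than arginine, and such differences cannot be told apart from that of arginine here. Below, with and without arginine stand for the 2 media as a whole. Each medium has 2 libraries, numbered 1 and 2, and every library comes from the 1 line. Whether the 2 are separate cultures is not given in the sources used here, so the spread between them may be technical. The series title describes cancers that lack ASS1, the enzyme that lets a cell make arginine from citrulline.

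Making a cytosolic ribosome starts in the nucleolus, where a large particle called the small-subunit processome folds and cuts the ribosomal RNA precursor. NOL6, the human counterpart of yeast Utp22, and RCL1, a protein related to RNA cyclases, both belong to that particle and act on the small subunit. ZNF622, the counterpart of yeast Rei1, works at the other end of the line, on large subunits that have already reached the cytoplasm and must shed their assembly factors before they can translate. Mitochondria have their own ribosome, which makes the proteins encoded in mitochondrial DNA and whose proteins are all made in the cytosol. MRPL36 is a small zinc-binding protein of its large subunit with a bacterial relative, and MRPL54 is a large-subunit protein that bacteria lack.

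The libraries were shallow, with total counts from 105004 to 234766, and 1 read was worth between 4.33 and 9.42 CPM. CPM is the depth-scaled read count, here over the tested rows and after TMM scaling. The 5 genes together held 176 and 334 reads in the control libraries and 747 and 532 in the arginine-free ones. The processing notes name the genome build GRCh37, while the table's coordinates are those of GRCh38, so only some rows can be read as genes. Each of the 5 lies in 1 of 3 stretches of chromosomes where most protein-coding rows hold reads, SDHA to HMGCS1 on chromosome 5, VLDLR to VCP on chromosome 9 and ATP5F1D to CHAF1A on chromosome 19. In these stretches 29.4% of 357 protein-coding rows were at 0, against 72.7% of 17932 at other nuclear places. A shift between builds that is shorter than a gene could still take some reads out of a row, or bring in reads from beside it, and this was not tested. A footprint count reflects the amount of a messenger RNA and its translation alike, and fewer cells of a kind and less RNA per cell cannot be told apart in such bulk samples. Of 7 matched melanocytic marker rows 4 were at 0 (MITF, TYR, PMEL and SOX10), and the list's summed reads were 23 to 36 in control and 1 to 2 in arginine-free medium, with MLANA and TYRP1 alone inside the stretches. All 7 fibroblast marker rows were at 0, and so were 4 of 5 epithelial ones. At the depth and placing of these reads, a row at 0 says nothing about the cells.

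The rows of the 5 genes and their gene starts are as follows. ZNF622 (ENSG00000173545.5) runs from 16451519 to 16465800 on the minus strand of chromosome 5, with 1707 bases of exon in its row. MRPL36 (ENSG00000171421.13) lies on the same arm and strand, from 1798385 to 1801366, with 721 exon bases. NOL6 (ENSG00000165271.17) spans 33461353 to 33473930 on the minus strand of chromosome 9, with 4840 exon bases. RCL1 (ENSG00000120158.12) spans 4792944 to 4861075 on the plus strand of chromosome 9, with 2710 exon bases. MRPL54 (ENSG00000183617.5) spans 3762682 to 3767565 on the plus strand of chromosome 19, with 608 exon bases. The counting used no strand, and none of the 5 shares an exon base with another row of the table. Rows inside their spans were nearly empty: an unnamed row on the other strand within ZNF622 held 0 and 2 reads with arginine and 1 and 0 without it, and MIR6851 in NOL6 and KLF4P1, MIR101-2 and 1 unnamed row in RCL1 were at 0.

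A window of 300 bases around the start of each gene, 250 before and 50 from it on, was read from the RefSeq table of GRCh38.p14, which held all 5 genes. The E-box CACGTG, a site that MYC and related factors bind and that many ribosome assembly genes carry, was looked for on both strands, where it reads the same. It is present in 3 of the 5 windows, those of NOL6, RCL1 and MRPL36, and in 8.34% of the 22199 windows of protein-coding genes. The 3 matches are shown with the E-box in capitals, each 5′ to 3′ on the gene's own strand.
NOL6, chr9:33473894-33473923, minus strand, E-box beginning at base 14 of the transcript: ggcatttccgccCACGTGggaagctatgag
RCL1, chr9:4792936-4792965, plus strand, E-box beginning at base 5 of the transcript: cctgttccaaacCACGTGgacgcgtctggg
MRPL36, chr5:1799876-1799905, minus strand, E-box beginning 56 bases before the RefSeq start and inside the longer span of the table's row: acgtgggcacgcCACGTGaccccccccccc

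The windows of ZNF622 and MRPL54 hold no E-box. Each holds the letters CCGGAA close before its start, the core of the site of ETS factors, which was looked for after the sequences had been seen and is present on either strand in 21.2% of protein-coding windows and not in those of NOL6, RCL1 and MRPL36. The 60 bases before each of the 2 starts are shown with that core in capitals; in MRPL54 it occurs on both strands, and the 2 matches overlap.
ZNF622, chr5:16465801-16465860, minus strand: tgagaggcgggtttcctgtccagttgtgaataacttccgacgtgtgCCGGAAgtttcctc
MRPL54, chr19:3762622-3762681, plus strand: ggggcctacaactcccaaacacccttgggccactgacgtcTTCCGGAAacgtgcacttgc

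The C/EBP-ATF element TGATGNAAT, through which ATF4 acts on many genes in amino acid shortage, was found on neither strand in any of the 5 windows, and in 0.662% of protein-coding ones. Base composition varied among the 5, with G and C making up 74.8% of the 250 bases before RCL1, 64.0% before ZNF622, 62.4% before MRPL36, 58.0% before NOL6 and 44.8% before MRPL54, against a median of 62.0% over protein-coding windows (quartiles 52.0% and 70.4%). These matches describe letters in the windows and were not tested for binding.

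ZNF622 showed the largest difference of the 5. It held 32 and 55 reads in the control libraries and 263 and 205 in the arginine-free ones. These are levels of 302 and 282 CPM with arginine and of 1139 and 1288 CPM without it, so both arginine-free libraries stood far above both control libraries while libraries of a medium lay within a factor of 1.13 of each other. The mean level went from 292 ± 13.8 to 1213 ± 105 CPM (SD, n = 2 each), 4.16-fold higher, with a log2 fold change of 2.06 (SE 0.23). With arginine ZNF622 stood below NOL6 in CPM, and without arginine it had the most CPM of the 5.

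NOL6, of the small-subunit processome, had the highest CPM of the 5 in control medium. Its reads were 69 and 161 with arginine and 250 and 164 without, which are 650 and 826 against 1083 and 1030 CPM. The groups did not overlap, but the gap between them was similar to the gap between the control libraries. From means of 738 ± 124 and 1056 ± 37.2 CPM (SD, n = 2 each) the fit gave 0.51 on the log2 scale (SE 0.22), or 1.42-fold.

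RCL1, of the same particle, held 23 and 57 reads with arginine and 93 and 58 without. Its levels were 217 and 292 against 403 and 364 CPM, again with the lower control value in replicate 1 and no overlap. The log2 fold change was 0.56 (SE 0.27), close to that of NOL6, from means of 255 ± 53.4 and 384 ± 27.2 CPM (SD, n = 2 each). Both processome genes thus differed between the media by less than ZNF622 did.

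MRPL36, the mitoribosomal protein with the bacterial relative, held 20 and 31 reads with arginine and 86 and 69 without. Its levels were 188 and 159 CPM against 372 and 433 CPM, and the groups lay apart. The mean went from 174 ± 20.9 to 403 ± 43.1 CPM (SD, n = 2 each), and the fit put it 2.34-fold higher, at 1.22 on the log2 scale (SE 0.28).

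MRPL54 differed from the rest in that its control libraries enclosed the arginine-free ones. It held 32 and 30 reads with arginine and 55 and 36 without, or 302 and 154 against 238 and 226 CPM. The control libraries differed 1.96-fold from each other, and the arginine-free ones 1.05-fold. The means were 228 ± 104 and 232 ± 8.54 CPM (SD, n = 2 each), and the log2 fold change was 0.10 (SE 0.34), so the 2 mitoribosomal genes had unlike differences. Whether MRPL36 and MRPL54 differ from each other was not tested.

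**Figure D1:**
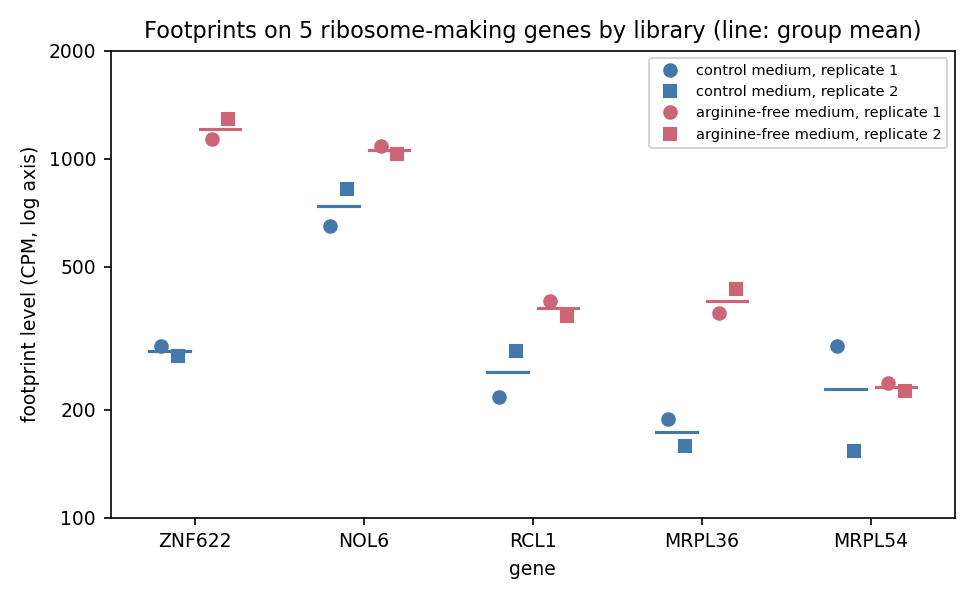
Footprint level of each gene in CPM (log axis) in the 4 libraries, with circles for replicate 1, squares for replicate 2 and a line at each group mean. Both arginine-free libraries lie above both control libraries for 4 of the 5 genes, while the control libraries of MRPL54, at 302 and 154 CPM, lie on either side of its arginine-free ones.

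Both arginine-free libraries thus lay above both control libraries for 4 of the 5 genes, and the same held for 33.1% of the 2526 tested rows and for 34.9% of the 175 tested rows in the stretches. Since the 5 were chosen with these counts known, nothing is read from that. Ranked by log2 fold change among the 175, ZNF622 was number 5, MRPL36 number 16, RCL1 number 42, NOL6 number 46 and MRPL54 number 82. The median log2 fold change of the 175 rows was 0.00, and that of all tested rows was -0.03.

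**Figure D2:**
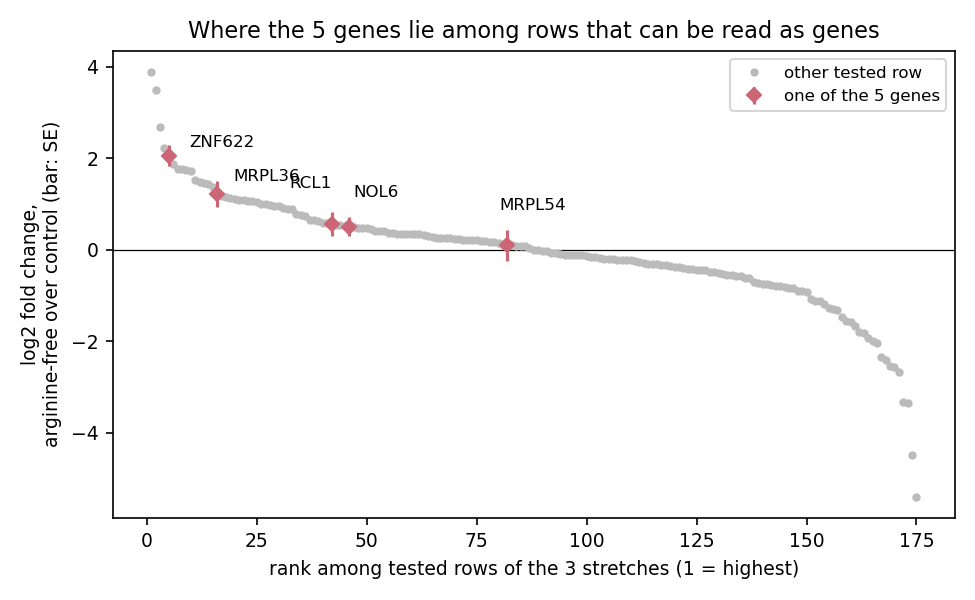
Log2 fold change of the 175 tested rows in the 3 stretches against their rank, with the 5 genes as diamonds and their SE as bars. ZNF622 and MRPL36 lie near the upper end at 2.06 and 1.22, RCL1 and NOL6 lie at 0.56 and 0.51, and MRPL54 lies in the middle at 0.10.

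The division of reads among the 5 genes does not depend on how libraries are scaled. NOL6 took the largest part of the 5 in control medium, 39.2% (95% Wilson interval 32.3 to 46.6) and 48.2% (42.9 to 53.6) in replicates 1 and 2. Without arginine its part was 33.5% (30.2 to 36.9) and 30.8% (27.1 to 34.9), although its own CPM was higher there. ZNF622 took 18.2% (13.2 to 24.5) and 16.5% (12.9 to 20.8) with arginine and 35.2% (31.9 to 38.7) and 38.5% (34.5 to 42.7) without arginine, which made it the gene with the most reads of the 5. These intervals cover counting error only, since amplified fragments without molecular identifiers are not independent molecules.

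**Figure D3:**
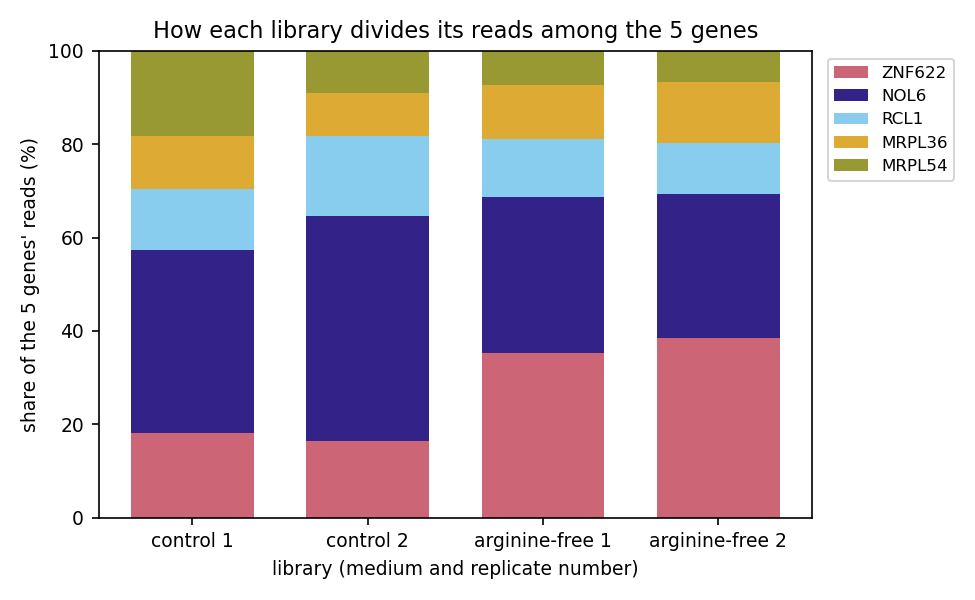
Share of the reads of the 5 genes that each gene took, in percent, in each of the 4 libraries. The ZNF622 part covers 18.2% and 16.5% of the control bars and 35.2% and 38.5% of the arginine-free bars.

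Ratios of reads within a library are free of scaling as well. There were 2.16 and 2.93 NOL6 reads for each ZNF622 read with arginine, and 0.951 and 0.8 without. For each MRPL36 read there were 1.6 and 1.77 ZNF622 reads with arginine and 3.06 and 2.97 without. The ratio of NOL6 to RCL1 varied least, at 3 and 2.82 with arginine and 2.69 and 2.83 without. This range, from 2.69 to 3, rests on 23 to 93 RCL1 reads a library, so counting error could hide a difference in the ratio. ANKH, which is not of that particle, followed NOL6 as well, with 67 and 140 reads with arginine and 218 and 164 without. The pair of NOL6 and RCL1 was singled out after its values were seen.

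Per kilobase of exon the order of the levels changed between the media. In control medium MRPL54 had 496 and 253 CPM per kilobase, MRPL36 had 261 and 221, ZNF622 had 177 and 165, NOL6 had 134 and 171, and RCL1 had 80.0 and 108. Of the neighbours in that order, MRPL54 and MRPL36 overlapped, as did ZNF622 and NOL6, while MRPL36 lay above ZNF622 and NOL6 above RCL1 in both libraries. Without arginine ZNF622 came first with 667 and 754 CPM per kilobase, then MRPL36 with 517 and 601, MRPL54 with 392 and 372, NOL6 with 224 and 213 and RCL1 with 149 and 134, and no neighbours in this order overlapped. By group means ZNF622 and MRPL54 thus exchanged the first and the third place, while MRPL36, NOL6 and RCL1 kept theirs. In control replicate 2 alone, NOL6 at 171 stood above ZNF622 at 165. These levels divide by the whole exon length of a row, untranslated parts included, where footprints are few.

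The rows beside the 5 genes are given as a description. With 3 to 5 tested rows a gene they cannot show whether a whole region differed. Some also lie far off, such as ANKH at 1579741 bases from ZNF622 and ICE1 at 3621311 bases from MRPL36. Of the 50 nearest protein-coding rows, 5 on each side of each gene, 35 held reads and 22 could be tested. Without arginine 2 of these were higher and 1 was lower by edgeR at an adjusted p under 0.05. The higher ones include IRX4, which entered the test only through its arginine-free libraries, where it is high. Over all tested rows 16.0% were higher and 16.9% lower, and in the stretches 16.0% and 14.9%. An unadjusted edgeR p under 0.05 was reached by 3 of 4 tested neighbours of ZNF622, 2 of 5 of NOL6 and 2 of 5 of MRPL36. It was reached by 0 of those of RCL1 and MRPL54. The share of all tested rows at that level is not given here. Without control replicate 2 the number of lower rows in the table fell from 428 to 243.

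Around ZNF622 the log2 fold changes of the 4 tested neighbours ranged from -1.47 to 0.54 around a median of -0.39, all below the 2.06 of ZNF622. DESeq2 called 1 of the 4. RETREG1, an endoplasmic reticulum receptor for autophagy whose row begins 7253 bases away, had 13 and 12 reads with arginine and 8 and 7 without (log2 fold change -1.13, SE 0.52, edgeR adjusted p = 0.114). On the other side, MARCHF11 held 1 and 0 against 1 and 3 reads and was not tested. The motor protein gene MYO10, the 1 lower neighbour, fell by 1.47 on the log2 scale (SE 0.22, edgeR adjusted p = 0.000179); it was named after its values were seen.

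MRPL36 and NDUFS6, a subunit of respiratory complex I, are read away from each other and their rows lie 41 bases apart. NDUFS6 held 100 and 200 reads with arginine and 151 and 120 without. Its log2 fold change, -0.49 with an SE of 0.21, did not pass (edgeR adjusted p = 0.086) and lay on the other side of 0 from that of MRPL36. With rows this close and no strand in the counting, reads of 1 could enter the other if positions were shifted, and that was not tested. LPCAT1, on the other side, had 10 and 19 against 12 and 9 reads (log2 fold change -0.83, SE 0.43, edgeR adjusted p = 0.161). IRX4, a homeobox gene singled out here after its values were seen, had 1 and 0 against 12 and 11 reads and was called higher by edgeR. It could enter that test only through its arginine-free libraries, where it is high. Its call is thus no support for a difference. DESeq2 called none of the neighbours of MRPL36.

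NOL6 lies between AQP3, with 1 and 0 against 1 and 0 reads, and ANKRD18B, which was at 0 in all 4 libraries. Its 5 tested neighbours had a median log2 fold change of 0.27, from -0.25 to 1.11. The highest, DCAF12, a substrate receptor of a ubiquitin ligase that was named after its values were seen, passed with edgeR (adjusted p = 0.0261), and DESeq2 called none of the 5. NOL6 at 0.51 was thus within the range of the rows around it.

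RCL1 lies between the mitochondrial kinase gene AK3 and the kinase gene JAK2. AK3 held 12 and 22 against 35 and 18 reads (log2 fold change 0.25, SE 0.35, edgeR adjusted p = 0.613), and JAK2 held 12 and 25 against 19 and 15 (log2 fold change -0.48, SE 0.37, edgeR adjusted p = 0.339). None of the 5 tested neighbours of RCL1 passed with edgeR or DESeq2, and 0 had an unadjusted p under 0.05. Their range, from -0.48 to 0.25, lay below the 0.56 of RCL1.

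MRPL54 lies between APBA3, with 13 and 13 against 15 and 11 reads (log2 fold change -0.40, SE 0.46, edgeR adjusted p = 0.533), and RAX2, which was at 0 in all 4 libraries. Its 3 tested neighbours ranged from -0.40 to 0.46, and 0 of them passed with edgeR, with DESeq2 or at an unadjusted p under 0.05. The value of MRPL54, 0.10, lay among them.

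**Figure D4:**
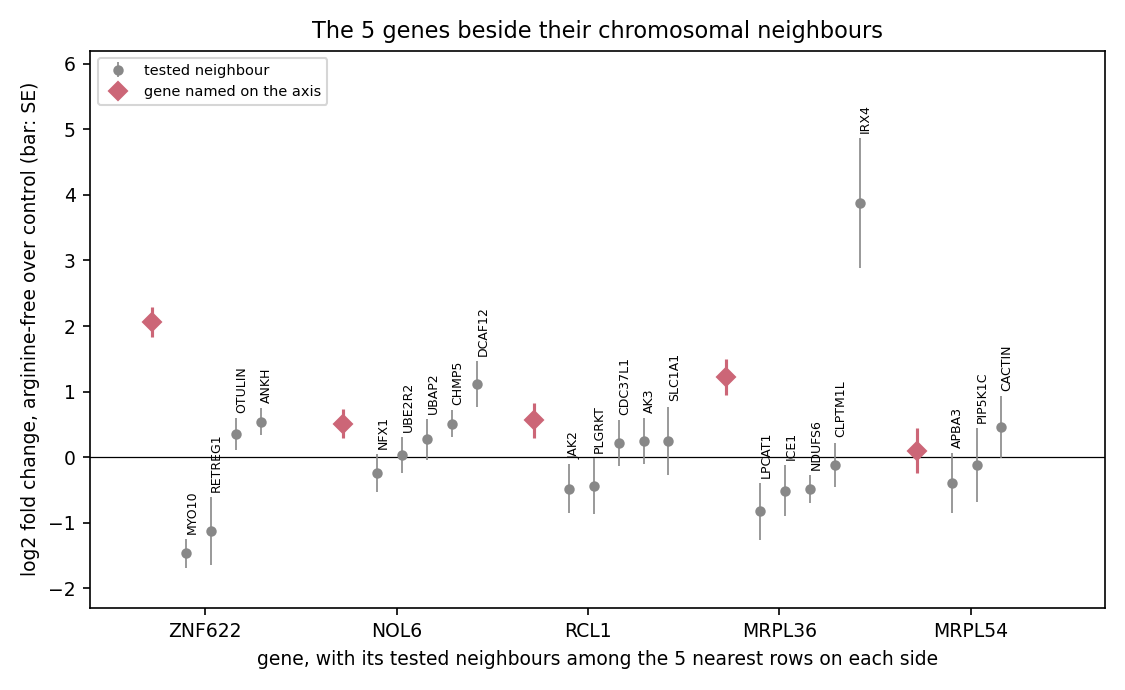
Log2 fold change with its SE of each of the 5 genes (diamonds) and of those of its 10 nearest protein-coding rows that were tested (grey circles, named). ZNF622 at 2.06 and RCL1 at 0.56 lie above all of their tested neighbours, and MRPL36 at 1.22 lies above all of its own except IRX4.

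Rows of the stretches with the most similar pattern were found by the root mean square distance between 4 log2 CPM values, each gene centred on its own mean, over 158 other tested protein-coding rows. The nearest row to NOL6 was RCL1, and the nearest to RCL1 was NOL6, at a distance of 0.05. REXO1 and ANKH, the latter a transporter that exports pyrophosphate and ATP, followed for both, at 0.08 and 0.09 from NOL6. MRPL36 was nearest to RPS6, a protein of the small cytosolic subunit, at 0.05, then to SIRT6 and to the elongation factor EEF2, each at 0.07. ZNF622 was nearest to RPL37, a protein of the large cytosolic subunit with 92 and 167 against 811 and 447 reads, at 0.19. MED10 and IRX4 came next at 0.29 each, so no row in the stretches matched ZNF622 as closely as others matched NOL6 or MRPL36. The log2 CPM values include a prior count of 2, which shrinks the differences of rows with few reads. The fitted log2 fold change of IRX4 is 3.88, against 2.06 for ZNF622, so that prior shortens its distance. Rows near MRPL54 were about as far from it as RPL37 was from ZNF622, with RPP25L and SCAMP4 at 0.18 and 0.19. Ribosomal protein genes have near-identical processed copies elsewhere in the genome, so the counts of RPL37 and RPS6 are uncertain. With 4 libraries such distances describe these libraries alone.

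Other genes of the same pathways could be followed only in part. Of 221 matched rows in 5 lists of ribosome assembly and mitochondrial translation genes, the 5 genes left out, 161 (72.9%) were at 0, and 1 lies in the stretches. That gene is BRIX1, an early assembly factor of the large subunit on chromosome 5 (34915711 to 34925996). It held 58 and 97 reads with arginine and 175 and 91 without, or 547 and 497 against 758 and 572 CPM. The groups did not overlap, but the log2 fold change of 0.36 (SE 0.23) did not pass (edgeR adjusted p = 0.238). BRIX1 and ZNF622 act at opposite ends of large-subunit assembly, and whether their differences are unequal was not tested.

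At other places a row's reads need not come from the gene it names, so these rows are given as counts. Of 5 tested rows of small-subunit assembly factors other than NOL6 and RCL1, 2 were higher and 1 lower, with a median log2 fold change of 0.53. Of 7 tested rows of large-subunit assembly factors other than ZNF622, BRIX1 included, 2 were higher and 0 lower, with a median of -0.13. DESeq2 called 1 row higher in the first list and 0 in the second. The lower small-subunit call was lost without either control replicate, which left 1 higher row without replicate 1 and 2 without replicate 2, and the 2 large-subunit calls became 0 without control replicate 1, 0 without control replicate 2 and 1 without arginine-free replicate 1. Of 4 tested large mitoribosomal rows 0 passed with edgeR or DESeq2, 1 had an unadjusted p under 0.05, and the median was 0.40. None of the 28 matched small mitoribosomal rows could be tested, as 23 were at 0 and the list held 39 reads in all. Of 3 tested rows of mitochondrial translation and mitoribosome assembly factors 1 was higher and 1 lower. The shares of all tested rows that were higher and lower are those given above for the neighbours, and the medians stand beside -0.03 for all tested rows.

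ZNF622 and MRPL36 stayed well above 0 under every setting tried, and the smaller differences depended on the scale. All settings reuse the counts with which the 5 genes were chosen, so this describes the handling and is no support for a difference. The filter at 50 counts kept ZNF622, RCL1 and MRPL36 only through their arginine-free libraries, where they are high. Leaving out each library in turn gave 2.03 to 2.20 for ZNF622 and 1.11 to 1.39 for MRPL36 on the log2 scale. Without control replicate 1 the values of NOL6 and RCL1 were 0.36 and 0.40, and without control replicate 2 they were 0.72 and 0.85. MRPL54 stood at 0.60 without control replicate 1 and at -0.35 without control replicate 2, so its direction turned on which control library was kept. When the reads of the 3 stretches alone set the library sizes, the median of all tested rows moved by -0.35. The 5 genes then stood at 1.70 for ZNF622, 0.87 for MRPL36, 0.21 for RCL1, 0.15 for NOL6 and -0.24 for MRPL54.

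**Figure D5:**
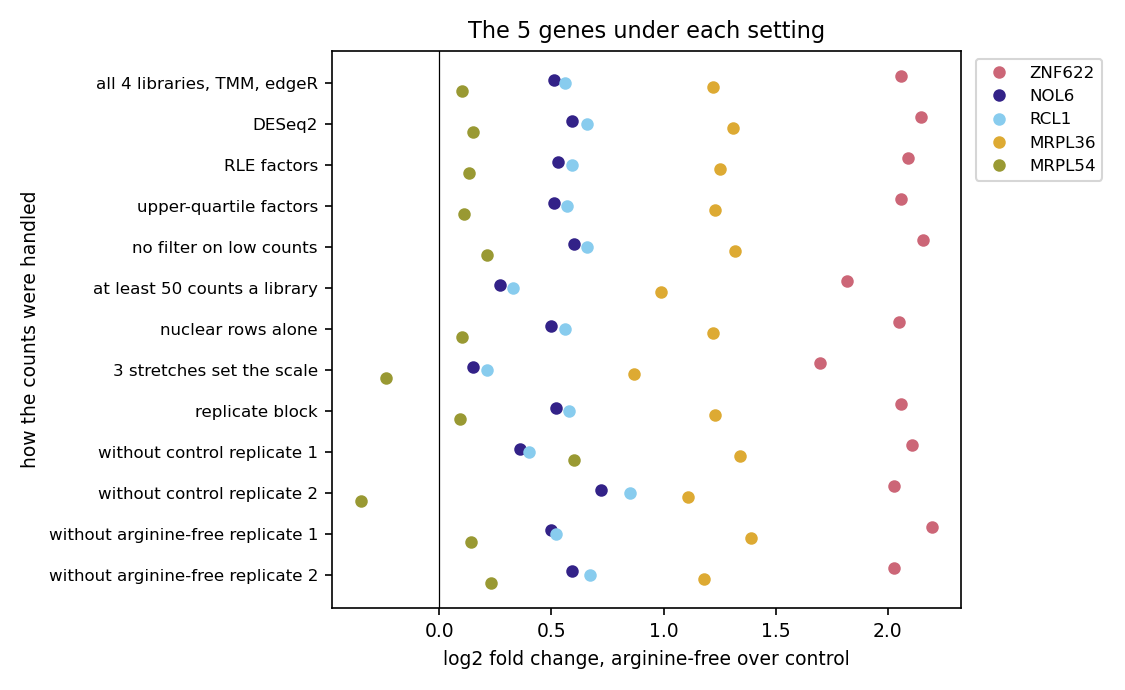
Log2 fold change of each of the 5 genes (colours) under the main setting, at the top, and 12 alternatives. ZNF622 stays between 1.70 and 2.20 and MRPL36 between 0.87 and 1.39, NOL6 and RCL1 come near 0 where the stretches set the scale, and MRPL54 lies on both sides of 0. The filter at 50 counts kept ZNF622, RCL1 and MRPL36 only through their arginine-free libraries.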

How the data were processed

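Per the file headers, the authors counted reads over GENCODE 47 basic exons with featureCounts 2.0.1, ignoring strand, and deposited whole-number counts for 4 libraries. Per the submitters' processing notes, cutadapt, Bowtie2 2.5.2 and TopHat2 were used, with GRCh37 (hg19) named as the build. The labels' protocols describe single reads without depletion of ribosomal RNA, while the header shows the counter's paired-read option, whose effect on the counts is not known. Rows carry no symbols, so each was paired with the RefSeq gene of GRCh38.p14 that matched its place best in both directions (overlap over union of at least 0.5 with a shared end, otherwise 0.75), which named 38563 rows.

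The count test was edgeR 4.0.16 in R 4.3.3 (TMM, filterByExpr, quasi-likelihood, Benjamini-Hochberg over 2526 rows, threshold 0.05). DESeq2 1.42.0 was an alternative. Standard errors are the size of the log2 fold change divided by the root of its F. Where a library shows 0, up to 3 counts are allowed, or 28.3 CPM in the shallowest and 13 CPM in the deepest. An exact permutation of 2 against 2 libraries cannot go below p = 0.333, so none was run. On data simulated with 1 common dispersion, the fit recovered 20.5% of 2-fold and 88% of 4-fold changes. A row that did not pass may thus still differ 2-fold.

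The 5 genes, the stretches and the lists were chosen with earlier results of these data known. Named genes are the 5, their nearest protein-coding rows and overlapping rows, list genes in the stretches and the 3 rows most like each gene, of which 1 is not reported here. Replicates of a medium differed by more than counting noise (chi-square per degree of freedom 4.43 with and 8.5 without arginine). Protein features planned for the 5 genes were not analysed here.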

Additional observations from a re-analysis of the deposited data

How the results depend on the processing

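The alternatives were DESeq2, RLE and upper-quartile factors, no filter on low counts, a filter at 50 counts in all libraries of either medium, nuclear rows alone, the stretches as scale, a replicate block and each library left out. The stretches as scale were fitted to all tested rows, but the calls under that setting were not counted. The log2 fold changes of ZNF622, NOL6, RCL1 and MRPL36 kept their direction in all 12, and that of MRPL54 was above 0 in 9 of 11, since it had too few reads for the filter at 50. ZNF622, RCL1 and MRPL36 passed that filter only through their arginine-free libraries, where they are high, so it is no support for their direction. With that filter ZNF622 stood at 1.82 and MRPL36 at 0.99, and with the stretches as scale ZNF622, MRPL36, RCL1 and NOL6 stood at 1.70, 0.87, 0.21 and 0.15; the median over the rows in common moved by -0.24 and -0.35 in these settings. Rows higher and lower numbered 405 and 428 of 2526. DESeq2, fitted to 9443 rows, called 162 and 147, so it called fewer rows over the whole table. The filter at 50, which tested 580 rows, called 138 and 146. Leaving out a library gave 243 to 389 lower rows. Small-subunit assembly calls, 2 higher and 1 lower, numbered 1 with DESeq2 (higher), 1 with the filter at 50 (lower), 2 with the replicate block (both higher) and 1 to 3 without a library. Large-subunit calls, 2 higher, numbered 0 with DESeq2, 1 with the filter at 50 (lower, so the direction turned), 1 with no filter and 1 with the replicate block (both higher), and 0 to 2 without a library. The filter at 50 left 1 large mitoribosomal row to test and called it lower, where the other settings gave 0 calls. Where no value or construction shows it, the cause was not tested.

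Whether same-numbered libraries of the 2 media belong together is not known. Their deviations correlated at r = -0.05 over 2526 rows, which are not independent replicates, and such a value cannot settle it. With the replicate block ZNF622 was at 2.06, NOL6 at 0.52, RCL1 at 0.58, MRPL36 at 1.23 and MRPL54 at 0.09. With 20 to 69 reads in the shallowest library, each gene's level there is limited by depth.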
